A study of Tursiops truncatus with 28 samples.

Results

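The compact loci of dolphin skin are the short transcribed intervals of the genome that were detected at moderate levels in every library. They were chosen by position and level alone: a nuclear locus had to span at least 200 and under 5000 bases, introns included, to hold a mean of at least 5 and under 100 FPKM over the libraries, and to lie above 0 in every one. FPKM is a fragment count scaled both to the length of the transcript and to the total of fragments mapped in that library, so levels can be compared between loci per length. In all, 1645 of 24091 loci met the rule. The levels themselves chose the loci, so mean level and detection are given below as a description, with no test. What the loci encode is not known here, because the table names a locus only by scaffold and interval, and 0 loci could be given a gene name.

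Skin was taken from 28 wild common bottlenose dolphins (Tursiops truncatus) of Barataria Bay, 1 library per animal, and its RNA was sequenced on the Illumina platform. The animals fall into 5 groups by sampling session and sex: July 2016 females (9 animals), June 2017 females (8), June 2017 males (3), September 2017 females (5) and September 2017 males (3). No group carries a labelled treatment, age is not used here, and no male was sampled in 2016, so comparisons with July 2016 rest on females and on a sex effect measured in 2017. Year and month cannot be told apart for July 2016. For July 2016 female 6 the title names an earlier year than the sampling date, and the date was used. Libraries are named by group and a number that has no meaning beyond the name. Defining markers of skin could not be checked without gene names, and in whole skin fewer cells of a type and less RNA per cell cannot be told apart.

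Skin is built from an epidermis of keratinocytes over a dermis of fibroblasts, vessels and immune cells. A compact locus in a mammalian genome usually has few, short introns or none, and genes of this form include those of ribosomal proteins, histones and many small secreted or structural proteins. On a draft assembly a short interval can also be a fragment of a longer gene, a processed copy, or a transcript outside the annotated genes. Which of these applies to any locus below was not analysed here.

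Of 24055 nuclear loci 7398 spanned 200 to under 5000 bases. By level they fell as follows: 1132 were listed at 0 in all 28 libraries, 4196 had a mean above 0 and under 5 FPKM, and 364 reached 100 FPKM or more. The remaining 1706 had a mean within the limits, and 61 of them were left out because at least 1 library listed them at 0, among them 14 that were at 0 in a single library. A compact locus that is switched off fully in some animals is therefore not among the 1645. All 1645 passed the minimum mean of 1 FPKM that was set for testing, which 13192 loci passed.

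The median compact locus spanned 2526 bases, with a range of 215 to 4996, and held 19.2 FPKM, with an interquartile range of 10.4 to 38. Its highest library exceeded its lowest 3.13-fold at the median, and this ratio ran from 1.40 to 981 over the loci. At the limits of the rule, the longest compact locus, at 12377082-12382077 of scaffold NW_017843730.1, spanned 4996 bases with a mean of 58.3 FPKM, and the shortest locus left out as too long spanned 5002 bases with 47.3 FPKM. The lowest mean inside the rule was 5.0 FPKM and the highest outside was 4.99. The highest mean inside was 99.93 FPKM, at 14893236-14898017 of NW_017844293.1, and the lowest above the limit was 100.2 FPKM. The shortest compact locus, at bases 4 to 218 of scaffold NW_017842952.1, begins at the very edge of its scaffold. It held a mean of 63.2 FPKM, with 15.0 in its lowest library and 139.8 in its highest.

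Part of the compact loci shared their place with other loci. Of the 1645, 339 (20.6%) overlapped another locus of the table, against 19.1% at 5000 to under 20000 bases, 28.3% at 20000 to under 100000 bases and 43.9% at 100000 bases or more, for loci of the same level and detection. Wholly inside another locus lay 203 (12.3%), and in the longer classes this share was 2.66% at 5000 to under 20000 bases, 0.759% at 20000 to under 100000 bases and 0% at 100000 bases or more. How the fragments of overlapping loci were shared out was not analysed here. Compact loci that overlapped none lay a median of 1568 bases from the nearest locus. They were found on 223 scaffolds, with the most on NW_017843440.1 (41), NW_017844458.1 (35) and NW_017842414.1 (34).

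Along the genome the compact loci were dense in some scaffolds and sparse in others. They made up 19.6% of all loci of the same level and detection. Over the 108 scaffolds with at least 20 such loci this share had a median of 17.8% and ran from 4.17% on NW_017843582.1 (1 of 24) to 57.7% on NW_017842845.1 (15 of 26), with NW_017843071.1 next at 14 of 25. When compact loci of a scaffold less than 10000 bases apart were joined into runs, 1196 stood alone, 152 runs held 2, 38 held 3, 6 held 4, and 1 held 7.

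The run of 7 lay at 114186-136772 of scaffold NW_017842907.1, with no other locus of the table inside its span. Gaps between its neighbours ran from 48 to 3528 bases. In order along the scaffold the 7 loci held means of 24.4, 25.8, 29.0, 17.8, 89.6, 45.5 and 38.1 FPKM. The locus at 123961-126229 was thus the most abundant, and its libraries ran from 53.7 to 147 FPKM. None of the 7 was called in any comparison below. Whether the 7 intervals belong to separate genes was not tested.

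The spread between animals fell as compact loci became longer. Spread is the SD over the 28 libraries of log2(FPKM + 1), a scale on which 1 is a doubling for loci well above 1 FPKM. Its median was 0.808 in the 49 loci of 200 to under 500 bases, 0.529 in the 149 of 500 to under 1000, 0.425 in the 412 of 1000 to under 2000, 0.371 in the 398 of 2000 to under 3000, 0.341 in the 334 of 3000 to under 4000 and 0.326 in the 303 of 4000 to under 5000. The decline went on beyond the compact loci, with medians of 0.297, 0.253 and 0.235 in the next 3 length classes, against 0.387 over all compact loci and 0.317 over all tested loci. It was seen at each level: at 5 to under 10 FPKM the compact median was 0.479 against 0.375, 0.299 and 0.252 in the longer classes, and at 30 to under 100 FPKM it was 0.328 against 0.249, 0.229 and 0.218. At equal FPKM a shorter transcript rests on fewer fragments. The number of fragments behind a value is unknown here, so the part of counting error in this pattern was not tested.

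**Figure D1:**
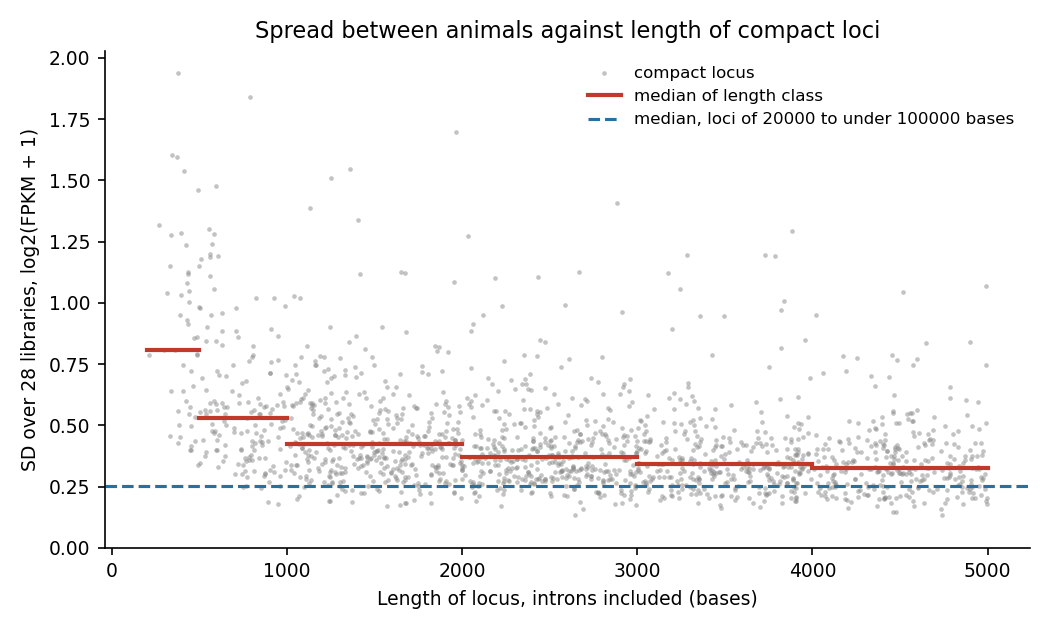
Spread between libraries against locus length. The horizontal axis gives interval length in bases and the vertical axis the SD over 28 libraries of log2(FPKM + 1), with 1 point per compact locus. The red bars, medians of each length class, fall from 0.808 under 500 bases to 0.326 at 4000 to under 5000 bases, above the dashed line at 0.253 for loci of 20000 to under 100000 bases.

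The steadiest compact loci varied 1.52-fold and 1.40-fold between their highest and lowest libraries. On scaffold NW_017844510.1 the locus at 7228152-7230798, of 2647 bases, held 82.0 to 104 FPKM in July 2016 females with a median of 93.5, and 75.3 to 101 in June 2017 females with a median of 89.1. It held 91.4, 94.9 and 83.5 FPKM in the June males, 110.3, 88.9, 93.1, 78.4 and 114 in the September females, and 92.8, 83.1 and 87.1 in the September males. All 5 groups overlapped, and the SD of 0.133 was the smallest of the 1645. This locus lies inside another locus of the table. Next came the locus at 1183589-1188330 of NW_017842120.1, with an SD of 0.135 and libraries from 51.7 to 72.2 FPKM.

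The compact locus with the largest spread lay high in some animals and near 0 in others. It is a 380-base interval at 52078771-52079150 of scaffold NW_017843712.1 that overlaps no other locus, with an SD of 1.94. July 2016 females held 0.266 to 28.2 FPKM with a median of 5.76, and June 2017 females 0.255 to 36.7 with a median of 4.87. In June males it stood at 33.5, 27.4 and 10.7 FPKM, in September females at 11.6, 0.276, 0.318, 0.740 and 19.8, and in September males at 9.28, 16.6 and 0.749. The libraries split at a gap with no value between 1.41 and 5.76 FPKM, with 12 libraries below it and 16 above. Those below were 4 July females, 4 June females, 3 September females and 1 September male, so every session had animals on either side. No comparison called this locus, with adjusted p from 0.691 to 1 (limma).

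Such gaps recurred among the shortest of the widely spread loci. The 345-base locus at 800443-800787 of NW_017843255.1 had 5 libraries at 1.99 FPKM or less and 23 at 7.61 or more. The 373-base locus at 13469584-13469956 of NW_017844144.1 had 6 at 2.05 or less and 22 at 6.23 or more. The 393-base locus at 3552219-3552611 of NW_017843484.1 had 8 at 1.76 or less and 20 at 5.79 or more. These loci and the gaps were picked out after their values were seen, and each gap is a description.

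An SD above 1 was reached by 56 compact loci, or 3.40%. In the 3 longer classes of the same level and detection the shares were 0.613%, 0.273% and 0.399%, and over all tested loci, which include lower ones, 3.76%. Of the 56, 31 were under 1000 bases. Of the 49 loci under 500 bases, 36.7% were among them. The other 25 were 1000 bases or longer, and of those 7 had their highest value in a single library, June 2017 male 3. Without that library 55 compact loci had an SD above 1, and 25 of them were 1000 bases or longer.

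**Figure D2:**
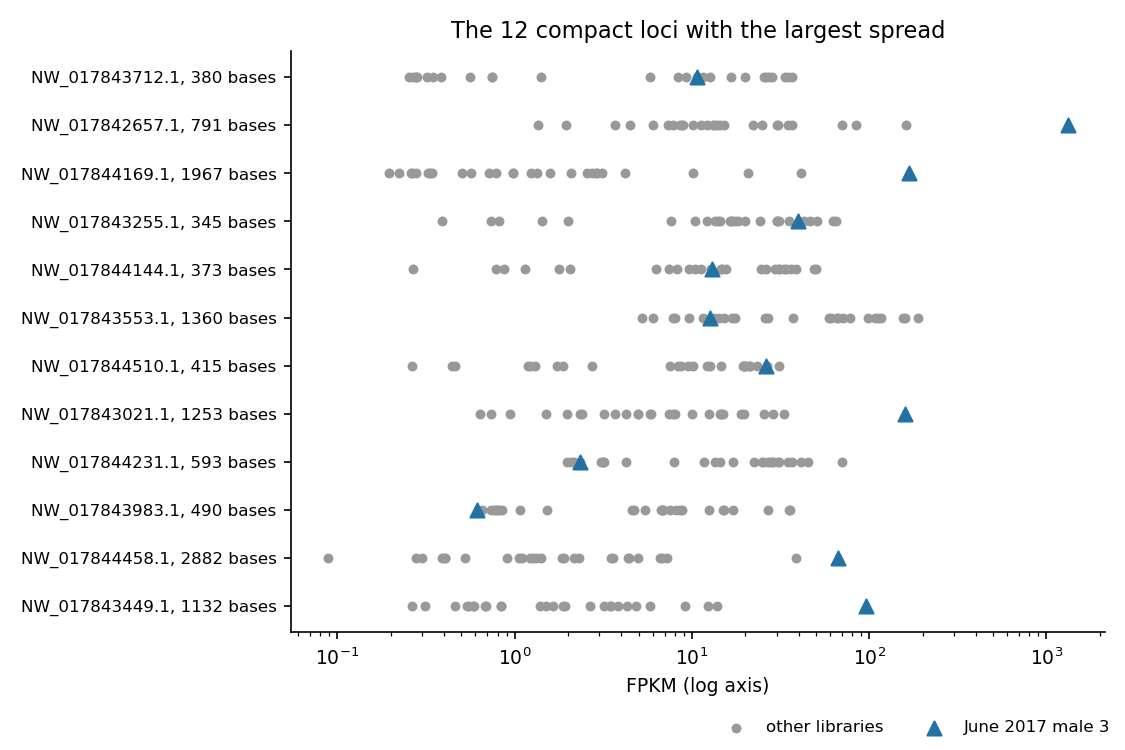
FPKM of every library, on a log axis, at the 12 compact loci with the largest SD, ordered from the largest. Grey points are the other libraries and blue triangles June 2017 male 3. Short loci such as the 380-base interval show 2 clouds of libraries split by a gap. Several loci over 1000 bases have their largest value in June 2017 male 3.

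A pair of libraries held most of the isolated peaks. A peak is a compact locus whose highest library was at least 2-fold above every other library. There were 22 (1.34% of the 1645), of which 9 were in June 2017 male 3 and 9 in July 2016 female 6, while 2 were in July 2016 female 1 and 1 each in July 2016 female 4 and June 2017 female 1. The other 23 libraries had none. In the 3 longer classes the peaks numbered 17 of 2447, 5 of 3292 and 1 of 1002, and June 2017 male 3 held 8, 3 and 0 of them, so its peaks were not limited to compact loci. The median SD of the compact loci was 0.387 with all libraries and 0.383 without either of these libraries.

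The peaks of June 2017 male 3 stood on 9 scaffolds. The highest was an interval of 791 bases at 331008-331798 of NW_017842657.1, which lies inside another locus. Its June males held 162, 7.33 and 1319 FPKM, its September males 70.1, 34.7 and 8.73, its September females 8.86, 15.1, 10.1, 1.35 and 14.5, its June females 1.95 to 36.5 with a median of 11.7, and its July females 4.47 to 83.8 with a median of 13.9. June 2017 male 3 was thus 8.15-fold above the next library, June 2017 male 1, yet June 2017 male 2 lay among the females. The sex difference at this locus was 2.62 on the log2 scale, males higher (SE 0.757), and was not called (adjusted p = 0.483, limma).

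Other peaks of the same animal were at loci with low medians in the other libraries. At 35872201-35874167 of NW_017844169.1, 1967 bases long, June 2017 male 3 held 168 FPKM, the next library 41.1 and the median of the other 27 was 0.983. At 7884958-7886089 of NW_017843449.1 it held 96.5 FPKM against a next value of 13.9 and a median of 1.65. At 2548199-2549451 of NW_017843021.1 it held 158.8 FPKM against 33.0 and 5.85. The first of these lies 7548 bases before a locus of 515 bases, with 1 other locus of the table between them. The 515-base locus was picked for its abundance, which is too high for the rule. It was also highest in June 2017 male 3, at 182352 FPKM against a median of 6980 over all libraries.

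The peaks of July 2016 female 6 were at longer compact loci, all of at least 1075 bases. At 10253766-10257550 of NW_017842421.1 this library held 511 FPKM, the next library 119 and the median of the other 27 was 27.7. At 787164-791184 of NW_017844103.1 it held 90.2 FPKM against 15.5 and 4.68, and at 4851347-4856245 of NW_017842657.1 it held 104.6 against 19.9 and 11.3. Its 9 peaks and those of June 2017 male 3 are different loci, since each is defined by its highest library. Among the 9 of July 2016 female 6, 1 was called higher in July 2016 than in June 2017, at 737296-741168 of NW_017843145.1. Its log2 difference was 0.50 (adjusted p = 0.0275, limma), and it was 0.36 and still called without July 2016 female 6. Of 8 other alternatives 5 lost the call. These were median of ratios scaling, quantile normalization, loci under 200 bases left out, females alone and the compared sessions alone.

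Together the compact loci held a similar mean share of the summed FPKM in each group. FPKM is scaled to length, so this is not a share of the RNA fragments. Their summed FPKM was 4.96% ± 0.397 (SD, n = 28) of the library's total, from 4.13% to 5.84%. By group the share was 4.99% ± 0.450 in July 2016 females (SD, n = 9), 4.97% ± 0.418 in June 2017 females (n = 8), 4.80% ± 0.667 in June males (n = 3), 4.96% ± 0.296 in September females (n = 5) and 5.04% ± 0.178 in September males (n = 3). The groups overlapped throughout.

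Compact loci were also set against loci of 20000 to under 100000 bases within each library. For this, each locus was taken as its deviation from its own mean log2 value over libraries, and the median deviation of the longer loci was subtracted from that of the compact loci. The result was -0.04 ± 0.0898 in July 2016 (SD, n = 9), 0.05 ± 0.0733 in June 2017 (n = 11) and 0.01 ± 0.0406 in September 2017 (n = 8). July 2016 had the lowest mean, and its libraries ran from -0.17 to 0.08. The sessions overlapped, and their difference was not tested.

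**Figure D3:**
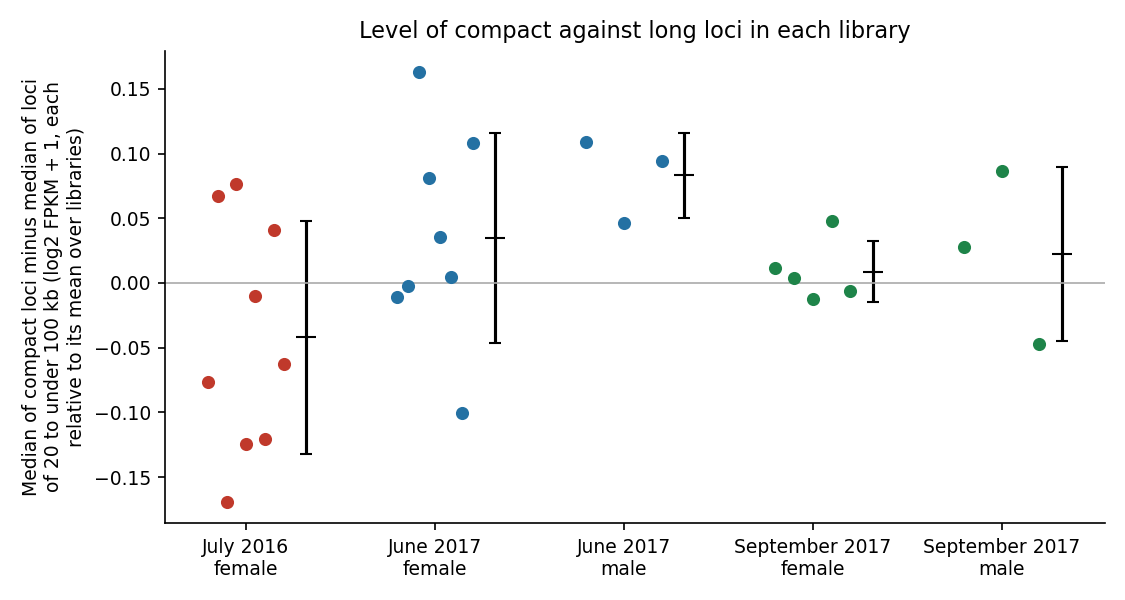
Median deviation of compact loci minus that of loci of 20000 to under 100000 bases, in log2 units, for each of the 28 libraries by group. Each point is 1 library, and the bars give the mean ± SD of the group. July 2016 libraries run from -0.17 to 0.08 and overlap those of both 2017 sessions.

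Between July 2016 and June 2017 the level changed at a small share of the compact loci, in either direction. The linear model held session and sex for all 28 libraries and was fitted with limma to log2(FPKM + 1) at the 13192 loci, and a locus was called at a Benjamini-Hochberg adjusted p under 0.05 over all of them. Of the 1645 compact loci 78 were called (4.74%), against 7.24% of all tested loci. In July 35 were higher, where the share of all tested loci is 5.06%, and 43 were lower, where it is 2.18%. The median called compact locus differed 1.5-fold, with a range of 1.21-fold to 3.163-fold. The folds of the session comparisons are taken from the log2 difference of the model, so they are ratios of FPKM + 1. More than 2-fold differences were found at 8 higher and 4 lower of the called compact loci. The share of all tested loci past 2-fold was not counted, so these counts are a description. An unadjusted p under 0.05 was reached by 281 (17.1%), against 22.0% of all tested loci.

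Differences at compact loci were measured less precisely than at longer ones of the same level. The median SE of the July to June difference was 0.169 for compact loci and 0.133, 0.113 and 0.107 in the longer classes, in which 6.17%, 9.75% and 8.18% were called. Within the compact loci, 1 of 49 was called under 500 bases, 4 of 149 at 500 to under 1000, 18 of 412 at 1000 to under 2000, 23 of 398 at 2000 to under 3000, 13 of 334 at 3000 to under 4000 and 19 of 303 at 4000 to under 5000. The shares of compact loci called and those of the longer classes were not tested against each other.

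The split between higher and lower calls was set beside that of the longer classes, with no test between classes. Of called compact loci 44.9% were higher in July, against 54.3% at 5000 to under 20000 bases, 81.9% at 20000 to under 100000 bases and 81.7% at 100000 bases or more. The median difference over all compact loci was -0.01 on the log2 scale, and 0.04 over all tested loci. With median of ratios scaling 26 compact loci were higher and 62 lower (29.5% higher), against 29.8%, 64.8% and 68.6% higher in the longer classes. With quantile normalization 25 were higher and 56 lower (30.9% higher), against 31.8%, 69.2% and 71.6%. The balance of directions therefore depends on the scaling of the libraries. Under both of these scalings the shares of compact loci and of the class of 5000 to under 20000 bases lay close together.

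**Figure D4:**
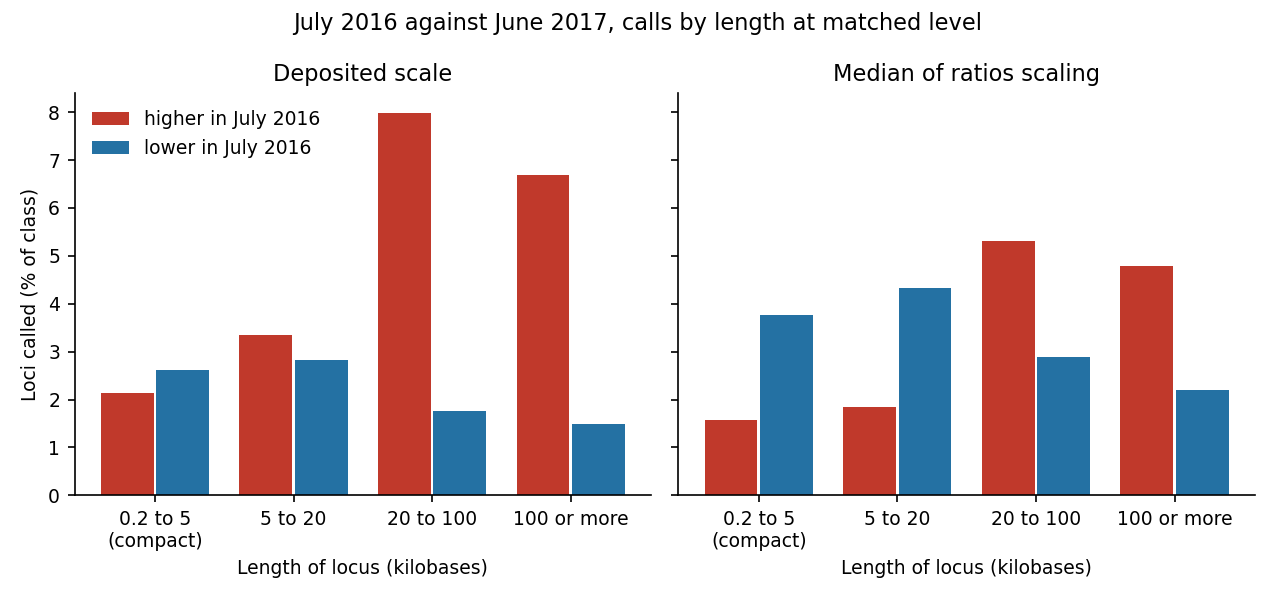
Share of loci called between July 2016 and June 2017 by length class, split into loci higher and lower in July, on the deposited scale (left) and with median of ratios scaling (right). The bars give percent of the loci of the class, for loci of 5 to under 100 FPKM above 0 in all 28 libraries. On the deposited scale, of compact loci 35 were called higher and 43 lower. At 20000 to under 100000 bases 263 were called higher and 58 lower.

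The lowest adjusted p of any compact locus in this comparison belonged to a locus of 3942 bases at 105619-109560 of scaffold NW_017842632.1. It held 32.1 to 41.8 FPKM in July 2016 with a median of 35.7, and 43.3 to 65.7 in June 2017 with a median of 59.3. Every July library lay below every June library. The log2 difference, July minus June, was -0.69 (SE 0.0853, adjusted p = 2.24e-05, limma). In September 2017 it held 37.2 to 66.4 FPKM with a median of 45.5, overlapping both sessions, and was also called higher than in July (log2 difference 0.44, SE 0.0946, adjusted p = 0.0124). It kept both calls in each of 36 alternative fits, 28 of which leave out 1 library.

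Complete separation of July from June was found at 4 compact loci, 2 above and 2 below, which were singled out after their values were seen. Such separation was met by 0.402% of all tested loci. Below with the former was the locus at 302387-304858 of NW_017842970.1, with 15.6 to 29.1 FPKM in July and 32.5 to 66.1 in June (log2 difference -0.81, SE 0.138, adjusted p = 0.000621, limma). Above were the loci at 2463135-2468123 of NW_017842583.1 and at 4157585-4162410 of NW_017843615.1. The first held 12.2 to 29.0 FPKM in July and 4.54 to 11.7 in June. In FPKM + 1 the difference was 2.27-fold (limma, log2 difference 1.18, SE 0.237, adjusted p = 0.00302). The second held 7.94 to 11.6 FPKM in June and 12.6 to 14.4 in July, a difference of only 1.29-fold in FPKM + 1. Its libraries lay so close together that it was called at an adjusted p of 0.000621 (limma, log2 difference 0.37, SE 0.0626). All 4 kept the July to June call in each of 36 alternative fits.

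The largest falls and rises past the threshold were chosen by a fixed rule of 2 each. The largest fall was at 1454793-1456197 of NW_017844458.1, a locus of 1405 bases. It held 0.662 to 8.91 FPKM in July 2016 with a median of 5.89, and 2.99 to 46.5 in June 2017 females with a median of 21.2. The June males held 5.73, 0.104 and 6.03 FPKM, the September females 8.67, 18.9, 3.86, 7.83 and 13.8, and the September males 11.5, 2.22 and 5.09. Of the June libraries the females ran highest, whereas the males lay within or below the July range. The log2 difference was -1.66 (SE 0.508, adjusted p = 0.0440, limma), and the call was lost in 15 of 28 fits that left out 1 library. Over the 28 the difference ran from -1.90 to -1.46. Of 8 other alternatives 4 lost it, with adjusted p from 0.0530 in the compared sessions alone to 0.0996 with a pseudocount of 0.1.

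The next largest fall was steadier. It was at 25288826-25293343 of NW_017844169.1, a locus of 4518 bases that overlaps no other. July 2016 females held 1.14 to 4.53 FPKM with a median of 2.41, and June 2017 females 2.75 to 26.0 with a median of 11.3. The June males held 3.56, 1.65 and 2.08 FPKM, the September females 5.07, 22.1, 5.84, 5.51 and 14.2, and the September males 1.43, 1.91 and 6.30. All 5 September females lay above all 9 July females, while 5 of the 6 males of 2017 lay within the July range. June 2017 female 1 (2.75 FPKM) and June 2017 female 8 (3.94 FPKM) also lay within it.

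With sex in the model the log2 difference at this locus was -1.60 for July minus June (SE 0.313, adjusted p = 0.00240) and 1.59 for September minus July (SE 0.347, adjusted p = 0.0136, limma). September and June differed by -0.01 (SE 0.311, adjusted p = 0.992). The difference between the sexes was -1.55, males lower (SE 0.331), and was not called (adjusted p = 0.0622). Both session calls held in all 36 alternative fits.

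Among the rises, the locus at 26253993-26254308 of NW_017844458.1 spans 316 bases and was the only compact locus under 500 bases called between these sessions. It held 36.1 to 115 FPKM in July 2016 with a median of 59.3, and 5.40 to 59.7 in June 2017 females with a median of 23.0. Its June males held 27.7, 37.4 and 11.9 FPKM, its September females 20.0, 41.4, 35.8, 76.3 and 35.8, and its September males 53.1, 69.7 and 89.6. Of the June libraries 3 females and 1 male lay within the July range, as did all 3 September males. The log2 difference, July minus June, was 1.63 (SE 0.364, adjusted p = 0.00725, limma). The other large rise was at 2460907-2462966 of NW_017843193.1. It held 5.36 to 17.6 FPKM in July 2016 with a median of 11.8, and 1.15 to 10.3 in June 2017 females with a median of 2.74. Values in the June males were 3.51, 1.35 and 3.74 FPKM, in the September females 2.95, 2.23, 10.9, 9.68 and 1.79, and in the September males 6.55, 4.62 and 4.46. Only June 2017 female 7, at 10.3 FPKM, reached the July range among the 11 June libraries. The log2 difference was 1.52 (SE 0.301, adjusted p = 0.00265, limma).

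**Figure D5:**
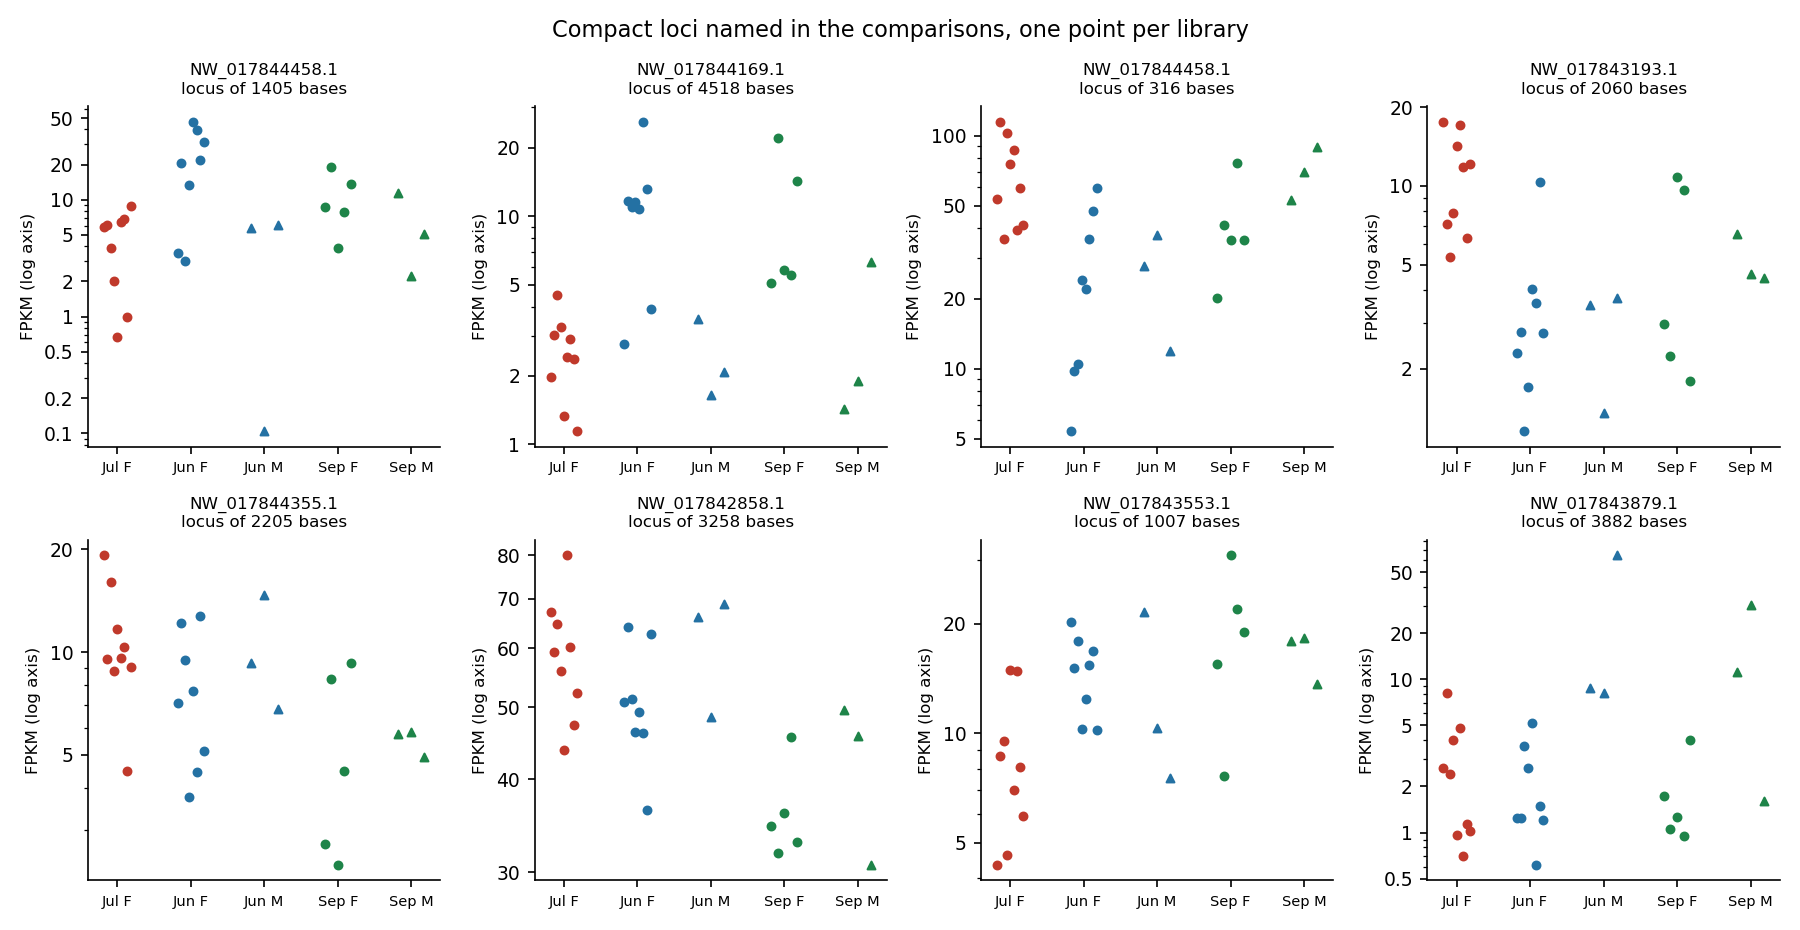
FPKM, on log axes, of the 8 compact loci named by the rule in the session and sex comparisons, 1 point per library, with circles for females and triangles for males. Red is July 2016, blue June 2017 and green September 2017. At the 4518-base locus the July females and most males lie low, and most 2017 females lie higher.

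Where the called compact loci lay is given as a description, with no test against chance. The 78 stood on 52 scaffolds, no pair of them shared a run, and 12 overlapped another locus. At most 5 stood on any scaffold, which was the case for NW_017842632.1 (5 of 23 compact loci), NW_017843160.1 (5 of 25) and NW_017844458.1 (5 of 35).

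Of the 78 called loci 1 was also a peak of June 2017 male 3. At 1036663-1038341 of NW_017844458.1 that library held 100.2 FPKM, the next library 43.3 and the median of the other 27 was 15.1. The log2 difference, July minus June, was -1.17 (SE 0.33, adjusted p = 0.0282, limma), and it was -1.07 and still called without that library. The call was lost without July 2016 female 3 or 9 or June 2017 female 4 or 5, and with the compared sessions alone. The next compact locus along the scaffold, at 1052046-1054927, was also highest in June 2017 male 3, at 66.3 FPKM against a median of 1.63, and was not called (log2 difference 0.73, SE 0.573, adjusted p = 0.500).

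September 2017 differed from July 2016 at 21 compact loci (1.28%), against 1.95% of all tested loci. In September 14 were higher, where the share of all tested loci is 0.652%, and 7 lower, where it is 1.3%. Without September 2017 female 3 there were 11 higher and 2 lower, without September 2017 female 4 there were 7 and 4, and with loci under 200 bases left out 12 and 1. The shares of all tested loci in these alternative fits are not given here. No compact locus separated the sessions fully, which 0.402% of all tested loci did. The lowest adjusted p was at 13964-17490 of NW_017844566.1, a locus of 3527 bases. It held 13.9 to 28.4 FPKM in July with a median of 19.1, 17.4 to 27.6 in June with a median of 23.2, and 23.1 to 56.2 in September with a median of 32.1. July and September overlapped only between 23.1 and 28.4 FPKM. The log2 difference, September minus July, was 0.86 (SE 0.153, adjusted p = 0.00331, limma).

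The largest rises toward September were the 4518-base locus described above and a locus of 1007 bases at 4760721-4761727 of NW_017843553.1. The latter held 4.36 to 14.9 FPKM in July 2016 with a median of 8.07, and 10.2 to 20.2 in June 2017 females with a median of 15.3. The June males held 21.6, 10.3 and 7.53 FPKM, the September females 15.6, 7.64, 30.9, 21.9 and 18.9, and the September males 17.9, 18.3 and 13.7. All September libraries but female 2 and male 3 lay above the July range. The log2 difference, September minus July, was 1.06 (SE 0.256, adjusted p = 0.0278, limma), and the call was lost without July 2016 female 1 or September 2017 female 3, 4 or 5, with differences of 0.97, 0.92, 1.01 and 1.05. It was also lost with female libraries alone (adjusted p = 0.0677) and with the compared sessions alone (adjusted p = 0.110), both at 1.03.

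The largest falls toward September were at 21125842-21128046 of NW_017844355.1 and 4589125-4592382 of NW_017842858.1. The second, of 3258 bases, held 43.8 to 80.04 FPKM in July 2016 with a median of 59.4, and 36.4 to 64.1 in June 2017 females with a median of 50.1. The June males held 66.2, 48.5 and 68.9 FPKM, the September females 34.7, 31.8, 36.0, 45.6 and 33.0, and the September males 49.7, 45.7 and 30.7. Of the 8 September libraries 5 lay below every July library. The log2 difference was -0.69 (SE 0.131, adjusted p = 0.00559, limma), and it held in all 36 alternative fits. The first, of 2205 bases, held 4.49 to 19.2 FPKM in July with a median of 9.63. Its September females held 2.74, 8.33, 2.38, 4.48 and 9.26 FPKM and its September males 5.74, 5.82 and 4.93. The sessions overlapped. Their log2 difference was -1.01 (SE 0.272, adjusted p = 0.0490, limma), and this call was lost in 22 of 28 fits that left out 1 library. Over the 28 the difference ran from -1.17 to -0.87. Of 8 other alternatives 5 lost it, with adjusted p from 0.0501 with the mitochondrial level as a covariate to 0.141 in female libraries alone.

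Both comparisons with July 2016 called 11 compact loci, 14.1% of the 78 and 52.4% of the 21. The share of all tested loci called in both was not counted. The 11 and their directions are therefore given as a description. The comparisons share the July libraries, so the overlap is no independent repeat, and the values stand side by side. In July 3 were higher than in either 2017 session. The locus at 32717173-32719911 of NW_017842414.1 held medians of 56.2 FPKM in July, 36.7 in June and 34.3 in September. That at 161052-164993 of NW_017842989.1 held 32.7, 23.4 and 23.2, and that at 6740175-6741418 of NW_017843983.1 held 35.0, 26.3 and 23.7. In these 3 the July to June log2 differences were 0.73, 0.46 and 0.39, and those of September minus July -0.66, -0.48 and -0.52. The September call of the first was lost without September 2017 female 3, 4 or 5, and that of the second without July 2016 female 7 or September 2017 female 3 or 4. With loci under 200 bases left out, the September call was lost at all 3. That of the first was also lost with quantile normalization and with the compared sessions alone. The July to June calls of the 3 held in all 36 alternative fits.

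In July 8 of the 11 were lower than in either 2017 session, with July minus June log2 differences from -1.60 to -0.45 and September minus July differences from 0.44 to 1.59. They include the 3942-base, 4518-base and 1007-base loci described above. At 891023-892996 of NW_017844231.1 the medians were 8.67 FPKM in July, 12.7 in June and 17.1 in September. At 21199904-21204544 of NW_017842452.1 they were 19.2, 25.3 and 31.3. September minus July was 0.96 at the first (SE 0.192, adjusted p = 0.00758) and 0.67 at the second (SE 0.133, adjusted p = 0.00722, limma). All of their session calls held in the 36 alternative fits. The July to June call of the 1007-base locus was lost in 17 of 28 fits that left out 1 library. Of 8 other alternatives 4 lost it. At 4548450-4549174 of NW_017842906.1 the September call was lost in 19 of 28 and 4 of 8, and the June call in 1 of 8. At 5427948-5429864 of NW_017843160.1 the June call was lost in 7 of 28 and 1 of 8, and the September call in 3 of 28. At 1373369-1377561 of NW_017842120.1 the September call was lost in 5 of 28 and 2 of 8.

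No compact locus was called between the sessions of 2017 on the deposited scale with all libraries. Between September and June 2017, 0 of 1645 were called with limma, against 0.0379% of all tested loci, and 167 reached an unadjusted p under 0.05 (10.2%, against 12.0% of all tested loci). With loci under 200 bases left out 4 were called, all higher in September, and leaving out 1 library gave 0 to 2. The shares of all tested loci in these alternative fits are not given here, so the counts are a description. The lowest adjusted p, 0.0542, was at 5652610-5655409 of NW_017843107.1, a locus of 2800 bases. It held 9.23 to 23.3 FPKM in September with a median of 16.0, and 2.46 to 16.3 in June with a median of 5.59. In July it held 8.63 to 24.6 with a median of 10.4. June was thus the low session here, with a log2 difference of 1.20 for September minus June (SE 0.247) and a called difference of 1.01 for July minus June (SE 0.248, adjusted p = 0.0126, limma).

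Between the sexes 1 compact locus was called, higher in males, against 0.091% of all tested loci in either direction and 0.00758% for higher in males, and 87 reached an unadjusted p under 0.05 (5.29%, against 4.85%). None was lower in males, where the share of all tested loci is 0.0834%, and none separated the sexes fully, which 0.0531% of all tested loci did. The called locus is the locus of 3882 bases at 10784446-10788327 of NW_017843879.1. The June males held 8.75, 8.13 and 64.4 FPKM and the September males 11.1, 30.6 and 1.60, while September females held 1.72, 1.06, 1.27, 0.955 and 4.01, June females 0.617 to 5.21 with a median of 1.37, and July females 0.707 to 8.13 with a median of 2.42. September 2017 male 3 lay among the females, June 2017 male 2 was level with the highest female, both at 8.13 FPKM, and the other 4 males lay above every female. It is also a peak of June 2017 male 3, 2.11-fold above the next library, September 2017 male 2. The log2 difference was 2.31 (SE 0.448, adjusted p = 0.0219, limma), and without June 2017 male 3 it was 1.83 and no longer called. The call was also lost without September 2017 male 1 (2.30) or male 2 (2.03). With the sampling day as a block, an alternative added after the data were seen, it was 2.11 (SE 0.551) and not called (adjusted p = 0.728).

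The change from June to September 2017 did not differ between the sexes past the threshold at any compact locus. In limma 0 were called, against 0% of all tested loci, and 67 reached an unadjusted p under 0.05 (4.07%, against 3.69%). The contrast rests on 3 males in each session.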

How the data were processed

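The authors deposited a single table with skin libraries in columns and loci in rows, whose values were taken to be FPKM as deposited. The unit is not written in the table. Per the submitters' processing notes, Cufflinks 2.2.1, TopHat2 2.1.1 with Bowtie, Trimmomatic 0.33 and FastQC 0.1 were used, and the assembly named with the series is NIST Tur_tru v1. Their settings, the annotation, depth and strand use are not stated in these sources, so no counting interval can be given. Positions count the first base of a scaffold as 1, and length is end minus start as in the row name.

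Columns were matched to samples by title. The log2(FPKM + 1) scale understates changes at low levels. Every locus averaging 1 FPKM or more was fitted with limma 3.58.1 in R 4.3.3 (session and sex additive, all 28 libraries, 24 residual degrees of freedom, trend and robust empirical Bayes, two-sided). The sex difference of the June to September change came from a model of the 5 groups. The fit was tested on simulated data. Figures used matplotlib 3.10.9.

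The rule named, per comparison, up to 2 called rises and 2 called falls by size of the log2 difference, and the extremes of mean, length and SD and the largest run. Other loci named were chosen after their values were seen. The compact loci and every list were chosen with earlier results of these data known. Lists of marker genes could not be applied, and no sequence is printed, because no genome of this build was used here. Sequencing batches are not stated in these sources. Alternatives were another pseudocount, no filter, median of ratios scaling, quantile normalization, loci under 200 bases left out, overlapping loci left out, a length limit of 2000 bases, the mean level of 12 mitochondrial loci of at least 500 bases as a covariate, females alone, the compared sessions alone, 2017 alone, each library left out and, added after the data were seen, the sampling day as a block for sex (12 residual degrees of freedom).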

Additional observations from a re-analysis of the deposited data

Results flagged for a closer look

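Values that stood apart within a group of 4 to 10 libraries were looked for at the loci named by the rule. The share of summed FPKM, the median deviation of compact loci and its difference from longer loci were searched as well. The measure was the gap to the nearest library relative to the range of the group (Dixon's 95% limit). Of 90 groups 8 held such a value, and chance gives about 1 in 20 groups. Many of these loci were named for a large spread or difference, where values that stand apart are favoured, so the count is not read against that rate. Among June 2017 females, female 6 held 26.0 FPKM at 25288826-25293343 of NW_017844169.1, where the others held 2.75 to 13.2. Female 7 held 10.3 FPKM at 2460907-2462966 of NW_017843193.1, where the others held 1.15 to 4.02. Female 1 held 67.5 FPKM at the 272-base locus at 8691840-8692111 of NW_017843440.1, where the others held 2.16 to 23.8. Female 6 also held 131.9 FPKM at 123961-126229 of NW_017842907.1, in the run of 7 loci, where the others held 59.8 to 83.0. Among September 2017 females, female 5 held 4.01 FPKM at 10784446-10788327 of NW_017843879.1, the locus higher in males, where the others held 0.955 to 1.72. Female 1 held 15.7 FPKM at 8691840-8692111 of NW_017843440.1, where the others held 2.64 to 5.96. Female 4 held 25.2 FPKM at 101279-106273 of NW_017844172.1, below the other 4 at 29.6 to 31.1. Among July 2016 females, female 2 held 83.8 FPKM at 331008-331798 of NW_017842657.1, where the others held 4.47 to 30.6.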

How the results depend on the processing

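No analysis paired by animal was possible, since each animal gave 1 library. The labels give no replicate numbers. The sampling dates could serve as a block for sex alone, since 5 of 15 days held both sexes (6 males and 8 females), and this alternative, added after the data were seen, gave 0 compact loci called. Of the 9 differences named by the rule, none changed direction in 324 alternative values and the call was lost in 57, most often at 1454793-1456197 of NW_017844458.1 and 21125842-21128046 of NW_017844355.1. With compact loci limited to under 2000 bases, 610 remained, of which 23 were called for July 2016 against June 2017, 6 for September against July, and 0 for sex. With loci under 200 bases left out, 13 were called between September and July and 4 between September and June 2017. The compared sessions alone gave 12 calls for September and July, and the 2017 libraries alone gave 0 for sex. Without mitochondrial loci and loci under 200 bases in the sum, the share held by compact loci was higher in every group. It was 5.27% in July 2016 females, 5.31% in June 2017 females and 4.97% in June males. In September females it was 5.39% and in September males 5.32%. Leaving out 1 library at a time gave 64 to 92 calls for July against June, 11 to 27 for September against July, 0 to 2 for September against June, 0 to 2 for sex and 0 to 0 for the interaction. The share ranged from 4.45% to 5.12% in June males, 4.86% to 5.07% in September females and 4.94% to 5.11% in September males. The cause of these changes was not tested. Under the other alternatives the July to June count ran up to 114, with the mitochondrial level as a covariate. It fell to 55 with the compared sessions alone, of which 52 were among the 78. No filter gave 60, and leaving out loci under 200 bases gave 63. For the alternatives in this section the share of all tested loci called is not given, so the counts are a description. Depth per library is unknown, so which low differences were within reach cannot be stated.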
